A study of Mus musculus with 4 samples.

Results

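The genes described here encode the machinery that holds RNA polymerase II shortly after it starts and then lets it go. They were taken by symbol from the count tables and number 10 of the 53677 gene symbols counted. P-TEFb is represented by Cdk9, Ccnt1 and Ccnt2, the proteins that bind 7SK RNA by Hexim1 and Larp7, NELF by Nelfa, Nelfb, Nelfcd and Nelfe, and DSIF by Supt5. All 10 passed the filter on low counts that left 17879 genes to test. The series held 4 RNA-seq libraries of mouse oocytes, 2 made after knockdown of Ell3 (Ell3 KD) and 2 from controls (Ctrl), with 5 oocytes pooled in each. Oocytes of both groups were at the germinal vesicle (GV) stage, before meiosis resumes, and came from females given 7.5 IU of the gonadotropin PMSG 48 h earlier. The labels used here name no strain, age, knockdown method or treatment of the controls. Nor do they tell whether different animals gave the replicates of a group. Every p-value below, save those with an assumed spread, thus rests on the spread between libraries alone. The tests pool this spread in part over genes, and it may be technical.

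As background, RNA polymerase II pauses just downstream of many promoters when DSIF and NELF bind it. The kinase P-TEFb releases it by phosphorylating NELF, DSIF and the polymerase tail, after which NELF leaves and DSIF stays on as an elongation factor. Much of the P-TEFb in a cell is kept inactive on 7SK RNA by HEXIM proteins, and ELL family proteins join P-TEFb in the super elongation complex. Fully grown GV oocytes are largely silent in transcription, so their mRNAs are mostly stores made during growth. In such pooled samples less mRNA per cell and fewer cells cannot be told apart.

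The libraries held 89632815 and 65722415 counts in Ell3 KD, against 45131278 and 48669267 counts in Ctrl, so the knockdown libraries were the deeper ones. Levels are given as CPM, counts scaled to a library total of 1e+06 with a trimmed-mean correction, and between genes as CPM per kb of annotated exon. The targeted gene Ell3, an ELL elongation factor gene, had 2.88 and 2.80 CPM in Ell3 KD, against 8.12 and 9.78 CPM in Ctrl (log2 fold change -1.66 ± 0.14, SE; edgeR adjusted p = 6.04e-10). Of its exon length, 65.6% is also annotated to Serinc4, so reads there cannot be assigned with certainty. Of 12 oocyte markers all 12 were tested, and their summed level was 22390.7 and 22301.7 CPM in Ell3 KD, against 22810.3 and 22420.3 CPM in Ctrl; 3 rose (Dppa3, Ooep and Oosp1), 3 fell (Gdf9, Nlrp5 and Zp1) and 6 were not called. The 15 markers of cumulus and granulosa cells summed to 49.3 and 51.8 CPM in Ell3 KD, against 53.7 and 51.7 CPM in Ctrl. Most of this sum was Nr5a2 and Cyp19a1, so it says little of the other markers. Cyp19a1 had 16.2 and 17.9 CPM in Ell3 KD, against 18.7 and 17.2 CPM in Ctrl. Of 10 tested, 3 rose (Inha, Npr2 and Ptgs2), 1 fell (Nr5a2) and 6, with Cyp19a1, were not called. Among the 15, Amh, Amhr2 and Foxl2 had at most 0.102 CPM in Ell3 KD and no count in Ctrl. These values rest on 3 to 9 counts in each Ell3 KD library, and the Ctrl libraries were less deep. Fshr lay the other way, with 0.598 and 0.448 CPM in Ell3 KD, against 0.897 and 1.01 CPM in Ctrl, and was not called. So did Has2, which was not tested, with 0.0226 and 0.0309 CPM in Ell3 KD, against 0.153 and 0.0608 CPM in Ctrl. The 10 theca and stroma markers summed to 3.62 and 3.57 CPM in Ell3 KD, against 5.38 and 5.205 CPM in Ctrl. The largest part was Cyp11a1, with 1.91 and 2.025 CPM in Ell3 KD, against 2.76 and 2.61 CPM in Ctrl. Acta2 had 0.914 and 0.835 CPM in Ell3 KD, against 1.53 and 1.32 CPM in Ctrl. Star had 0.451 and 0.572 CPM in Ell3 KD, against 0.744 and 0.871 CPM in Ctrl. Lhcgr overlapped between the groups, and none of the 4 tested was called. Insl3 and Col1a2 were at 0 in every library. The 9 blood and endothelial markers summed to 48.7 and 51.3 CPM in Ell3 KD, against 65.9 and 63.9 CPM in Ctrl, most of it Pecam1, and all 3 that were tested fell (Alas2, Cd68 and Pecam1). The globin genes Hba-a1, Hba-a2, Hbb-bs and Hbb-bt and the myeloid gene Lyz2 had no count in any library. The part of these markers in the results was not tested.

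Among the 10 genes, 5 rose and 2 fell in Ell3 KD, and 3 did not pass the test at an edgeR adjusted p under 0.05. Ccnt1, Ccnt2, Hexim1, Nelfa and Supt5 rose, and Cdk9 and Nelfcd fell. Over all genes tested, 21.1% were called higher and 21.8% lower, 42.9% in either direction. Both Ell3 KD libraries lay above both Ctrl libraries for 5 of the genes and below them for 4, with 1 overlapping, while over all genes tested 35% lay above and 35.7% below. Their median log2 fold change was 0.07, against -0.0024 over all genes tested. For 9 of the 10 the 95% interval stayed within a 2-fold change in either direction from end to end. The exception was Hexim1, the gene with the fewest counts.

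**Figure D1:**
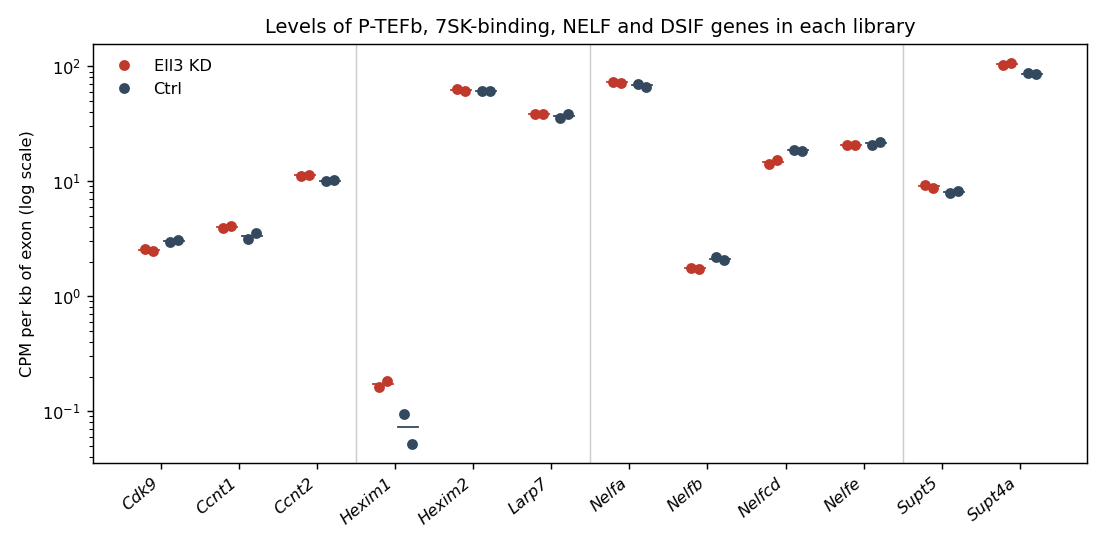
Level of each gene in CPM per kb of exon (log axis) in the Ell3 KD libraries (red, left of each pair) and the Ctrl libraries (dark, right), with the group mean as a bar; Hexim2 and Supt4a are shown as partners of the genes described. Hexim1 lies far below the other genes at 0.161 and 0.181 in Ell3 KD and 0.0939 and 0.0522 in Ctrl, and Nelfa far above Nelfb.

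The genes stood at very unequal levels per exon length, in the same order in both groups. From high to low, the order was Nelfa, Larp7, Nelfe, Nelfcd, Ccnt2, Supt5, Ccnt1, Cdk9, Nelfb and Hexim1. Nelfa averaged 72.6 ± 1.55 CPM per kb in Ell3 KD and 68.4 ± 2.98 CPM per kb in Ctrl (SD, n = 2 each). Nelfb, a subunit of the same complex, averaged 1.75 ± 0.0188 CPM per kb in Ell3 KD and 2.12 ± 0.0806 CPM per kb in Ctrl. Among tested genes with an annotated length, Nelfa stood at percentile 94.6 in both groups, and Hexim1 at percentile 14.2 in Ell3 KD and 6.33 in Ctrl. In neither group did the libraries of neighbours in this order overlap. With the longest transcript as length, the ranges of Nelfcd and Ccnt2 overlapped in Ell3 KD (means 18.65 and 18.2 CPM per kb), and those of Ccnt1 and Cdk9 overlapped in Ctrl (means 4.17 and 3.89 CPM per kb).

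The P-TEFb genes changed in opposite directions, the kinase down and both cyclins up. Cdk9 encodes the kinase itself and lies on chromosome 2 (32705784 to 32713076 on GRCm38, minus strand). It had 12.0 and 11.3 CPM in Ell3 KD, against 13.6 and 14.1 CPM in Ctrl. Both Ell3 KD libraries were below both Ctrl libraries, and Cdk9 fell by 0.25 ± 0.09 in log2 fold change (95% interval -0.43 to -0.07; edgeR adjusted p = 0.0235). Ccnt1 encodes cyclin T1, the cyclin partner best known from HIV Tat (chromosome 15, 98538689 to 98570923, minus strand). It had 36.05 and 37.45 CPM in Ell3 KD, against 29.0 and 32.7 CPM in Ctrl, with no overlap. Ccnt1 rose by 0.25 ± 0.06 in log2 fold change (95% interval 0.12 to 0.38; edgeR adjusted p = 0.0018). Ccnt2 encodes cyclin T2, the alternative partner of CDK9 (chromosome 1, 127774164 to 127808061, plus strand). It had 137.8 and 140.1 CPM in Ell3 KD, against 123.3 and 125.5 CPM in Ctrl, again with no overlap. Ccnt2 rose by 0.16 ± 0.04 in log2 fold change (95% interval 0.08 to 0.24; edgeR adjusted p = 0.00107), the narrowest error among the P-TEFb genes. The 95% interval of Cdk9 overlapped that of neither cyclin.

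Per exon length, cyclin T2 mRNA was the major P-TEFb mRNA of these oocytes. Ccnt2 made up 63.1% and 63.4% of the summed level of Cdk9, Ccnt1 and Ccnt2 in Ell3 KD, against 62.0% and 60.5% in Ctrl. Cdk9 made up 14.7% and 13.7% in Ell3 KD, against 18.3% and 18.2% in Ctrl, the smallest share of the complex in every library. The level of Ccnt1 was 1.51 and 1.67 times that of Cdk9 in Ell3 KD, against 1.07 and 1.17 times in Ctrl. The ratio of Ccnt2 to Cdk9 was 4.29 and 4.62 in Ell3 KD, against 3.38 and 3.32 in Ctrl. With 2 libraries a group, no exact permutation test of such a share can pass a threshold of 0.05, and none was run.

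The call of Cdk9 was lost with DESeq2 (adjusted p = 0.0863), after thinning all libraries to the lowest library total (edgeR adjusted p = 0.164), without the trend on length and GC content (edgeR adjusted p = 0.0626), and without Ctrl replicate 2 (edgeR adjusted p = 0.0974) or Ell3 KD replicate 2 (edgeR adjusted p = 0.169). That of Ccnt1 was lost without Ctrl replicate 1 (edgeR adjusted p = 0.0524), while that of Ccnt2 held without any single library.

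The region before the annotated start of Ccnt2 is shown because 2 kinds of short promoter motif stand close to that start in it. It spans chr1:127773914-127774163 (RefSeq, GRCm38.p6), with CCAAT and GGGCGG, on either strand, in capitals; a CCAAT on the minus strand reads ATTGG.
Ccnt2: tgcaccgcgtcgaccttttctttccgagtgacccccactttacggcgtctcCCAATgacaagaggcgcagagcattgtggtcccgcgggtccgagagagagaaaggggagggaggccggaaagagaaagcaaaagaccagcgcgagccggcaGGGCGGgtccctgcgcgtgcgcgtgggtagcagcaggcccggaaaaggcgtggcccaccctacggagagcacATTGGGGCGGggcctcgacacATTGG
CCAAT (the CCAAT box) occurred 3 times in it and GGGCGG (the GC box bound by SP1-type factors) occurred 2 times, 1 of them sharing bases with a CCAAT. A match is a description of the letters and not a bound site.

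**Figure D2:**
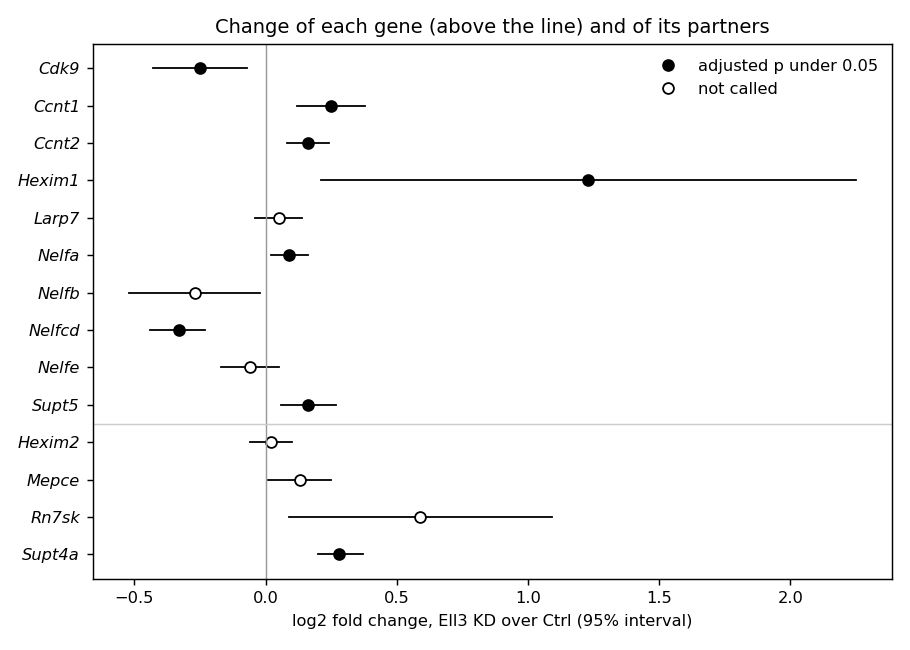
Log2 fold change of Ell3 KD over Ctrl with its 95% interval (horizontal axis) for the 10 genes and, below the grey line, for 4 partner genes; filled points passed an edgeR adjusted p of 0.05. Cdk9 and Nelfcd lie left of 0 and the cyclin T genes right of it, and the interval of Hexim1 is the widest.

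Among the mRNAs for proteins that hold P-TEFb on 7SK RNA, that of Hexim1 was almost absent and that of its paralog Hexim2 abundant. Protein amounts were not measured. Hexim1 encodes the inhibitor that blocks CDK9 when bound to 7SK (chromosome 11, 103116231 to 103119725, plus strand). It had 50 and 41 counts in Ell3 KD, against 15 and 9 counts in Ctrl. These are 0.564 and 0.634 CPM in Ell3 KD, against 0.328 and 0.182 CPM in Ctrl, and the groups did not overlap. The exact Poisson 95% intervals, which cover counting error only, were 0.419 to 0.744 and 0.455 to 0.860 CPM in Ell3 KD, against 0.184 to 0.541 and 0.0833 to 0.346 CPM in Ctrl. Hexim1 rose by 1.23 ± 0.49 in log2 fold change (95% interval 0.21 to 2.25; edgeR adjusted p = 0.0464), the largest change among the 10 genes and the least precise.

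Hexim2, which encodes the second HEXIM protein, lies close to Hexim1 on the same strand of chromosome 11 (103132429 to 103139876). It had 149.3 and 144.1 CPM in Ell3 KD, against 146.0 and 143.5 CPM in Ctrl. Its log2 fold change of 0.02 ± 0.04 did not pass the test (95% interval -0.06 to 0.10; edgeR adjusted p = 0.705). Per exon length Hexim2 stood 389.7 and 334.7 times above Hexim1 in Ell3 KD, and 655.5 and 1159.4 times above it in Ctrl. Hexim1 thus made up 0.256% and 0.298% of the summed HEXIM mRNA level in Ell3 KD, against 0.152% and 0.0862% in Ctrl.

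Larp7 encodes the La-related protein that binds the end of 7SK and keeps it stable (chromosome 3, 127536714 to 127553349, minus strand). It had 90.5 and 90.9 CPM in Ell3 KD, against 84.35 and 90.6 CPM in Ctrl, and its groups overlapped, as those of no other of the 10 genes did. Its log2 fold change was 0.05 ± 0.04 (95% interval -0.04 to 0.14; edgeR adjusted p = 0.356). Mepce, which encodes the enzyme that caps 7SK, had 33.0 and 33.4 CPM in Ell3 KD, against 29.5 and 31.2 CPM in Ctrl (log2 fold change 0.13 ± 0.06, edgeR adjusted p = 0.0763). Rn7sk, the gene of 7SK itself, had 1.85 and 1.89 CPM in Ell3 KD, against 1.33 and 1.15 CPM in Ctrl (log2 fold change 0.59 ± 0.24, edgeR adjusted p = 0.0535). 7SK has no poly(A) tail and many genomic copies, so in these poly(A) libraries its counts do not measure its amount.

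The call of Hexim1 was lost with DESeq2 (adjusted p = 0.128), without Ctrl replicate 2 (edgeR adjusted p = 0.247), without Ell3 KD replicate 1 (edgeR adjusted p = 0.151) and without Ell3 KD replicate 2 (edgeR adjusted p = 0.220). Of the 10 granulosa markers tested, Npr2, Inha and Ptgs2 were called higher. Npr2 had 0.316 and 0.232 CPM in Ell3 KD and no count in Ctrl. Inha had 2.18 and 2.47 CPM in Ell3 KD, against 0.941 and 1.13 CPM in Ctrl. Ptgs2 had 1.21 and 1.42 CPM in Ell3 KD, against 0.0656 and 0.304 CPM in Ctrl. Nr5a2 (22.3 and 22.5 CPM in Ell3 KD, against 26.6 and 26.2 CPM in Ctrl) was called lower and 6 were not called, with a median log2 fold change of 0.06 over the 10. The part of these markers in the Hexim1 result was not tested.

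The start of 7SK and the region before Hexim1 are shown because the first is where HEXIM proteins bind and the second belongs to the gene with the largest change. The 7SK stretch is the beginning of the 331-base annotated transcript (chr9:78175526-78175633, minus strand, GENCODE M21 on GRCm38), with GATC in capitals; GAUC in the RNA is the motif known for HEXIM binding, and it occurred 3 times.
Rn7sk: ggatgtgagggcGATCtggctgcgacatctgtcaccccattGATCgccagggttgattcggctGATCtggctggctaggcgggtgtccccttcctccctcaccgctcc
The Hexim1 stretch spans chr11:103116075-103116230 (RefSeq, GRCm38.p6) and ends at the last base before the annotated gene start, in which CCAAT (here read as ATTGG), then the GC box GGGCGG and last a run of TATATA stand in capitals.
Hexim1: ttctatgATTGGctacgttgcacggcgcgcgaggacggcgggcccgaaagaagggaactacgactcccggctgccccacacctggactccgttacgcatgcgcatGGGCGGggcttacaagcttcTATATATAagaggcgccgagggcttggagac
Its TATATA run, of the letters of a TATA box, begins 31 bases before the annotated gene start. In RefSeq windows from 250 bases before to 50 bases after a start, 8 of the 10 genes had an entry, and TATATA occurred in 1 of these 8, Hexim1, against 5.67% of 32851 such windows. TATAAA, the other TATA spelling searched, occurred in 1 of the 8, Nelfb, against 13.6% of all windows. CCAAT occurred in 4 of the 8 (37.4% of all windows) and GGGCGG in 8 of the 8 (35.7% of all windows), both strands searched for each motif. No match says only that these letters are not in that window.

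NELF, the complex that holds the paused polymerase, had 1 subunit gene that rose, 1 that fell and 2 that did not pass the test. Nelfa encodes the subunit that contacts the polymerase (chromosome 5, 33897916 to 33936413, minus strand). It had 290.9 and 282.3 CPM in Ell3 KD, against 278.1 and 261.5 CPM in Ctrl. The groups did not overlap but lay close, and Nelfa rose by 0.09 ± 0.03 in log2 fold change (95% interval 0.02 to 0.16; edgeR adjusted p = 0.0433), the smallest called change among the 10 genes. Nelfcd encodes the NELF-C and NELF-D forms of 1 subunit (chromosome 2, 174415804 to 174427502, plus strand). It had 41.1 and 43.9 CPM in Ell3 KD, against 53.9 and 53.1 CPM in Ctrl, with a clear gap between the groups. Nelfcd fell by 0.33 ± 0.05 in log2 fold change (95% interval -0.44 to -0.23; edgeR adjusted p = 1.05e-05), the smallest adjusted p of the 10 genes.

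Nelfb encodes the NELF subunit also known as a cofactor of BRCA1 (chromosome 2, 25199712 to 25211489, minus strand). It had 6.06 and 5.97 CPM in Ell3 KD, against 7.46 and 7.07 CPM in Ctrl. Both Ell3 KD libraries were below both Ctrl libraries, but the log2 fold change of -0.27 ± 0.12 missed the threshold (95% interval -0.52 to -0.02; edgeR adjusted p = 0.0699). Nelfe encodes the RNA-binding subunit (chromosome 17, 34850391 to 34856372, plus strand). It had 42.5 and 42.5 CPM in Ell3 KD, against 42.9 and 46.0 CPM in Ctrl, a difference smaller than the spread between the Ctrl libraries. Its log2 fold change of -0.06 ± 0.05 did not pass the test (95% interval -0.17 to 0.05; edgeR adjusted p = 0.350).

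Within NELF, the 4 subunit mRNAs stood far from equal levels per exon length. Nelfa made up 66.9% and 65.6% of the summed level in Ell3 KD, against 62.9% and 60.85% in Ctrl. Nelfcd made up 12.9% and 14.0% in Ell3 KD, against 16.7% and 16.9% in Ctrl, and Nelfb 1.60% in both Ell3 KD libraries, against 1.94% and 1.89% in Ctrl. Nelfe, at 18.6% and 18.8% in Ell3 KD and 18.45% and 20.3% in Ctrl, overlapped between the groups. Nelfa stood 41.7 and 41.1 times above Nelfb in Ell3 KD, and 32.4 and 32.2 times above it in Ctrl. The Nelfa to Nelfcd ratio was 5.17 and 4.69 in Ell3 KD, against 3.77 and 3.60 in Ctrl. The call of Nelfa was lost with DESeq2 (adjusted p = 0.0572), without Ctrl replicate 2 (log2 fold change 0.04, edgeR adjusted p = 0.430) and without Ell3 KD replicate 1 (edgeR adjusted p = 0.270). That of Nelfcd held without any single library.

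**Figure D3:**
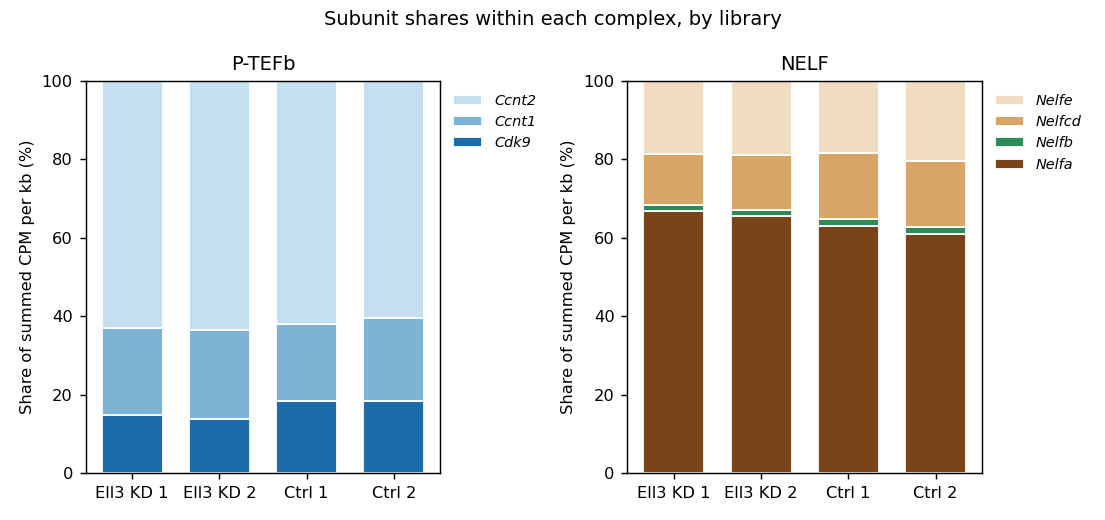
Share of each subunit mRNA in the summed CPM per kb of P-TEFb (left) and NELF (right), stacked to 100% for each library. Cdk9 takes 14.7% and 13.7% in Ell3 KD against 18.3% and 18.2% in Ctrl, and Nelfcd 12.9% and 14.0% in Ell3 KD against 16.7% and 16.9% in Ctrl.

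Both DSIF genes rose. Supt5 encodes SPT5, the large DSIF subunit and a substrate of CDK9 (chromosome 7, 28314891 to 28338746, minus strand). It had 54.0 and 49.97 CPM in Ell3 KD, against 45.9 and 47.1 CPM in Ctrl, without overlap. Supt5 rose by 0.16 ± 0.05 in log2 fold change (95% interval 0.06 to 0.27; edgeR adjusted p = 0.0132). Supt4a encodes SPT4, the small partner of SPT5, and had 97.3 and 100.6 CPM in Ell3 KD, against 81.8 and 80.95 CPM in Ctrl. It rose by 0.28 ± 0.04 on the log2 scale, at an edgeR adjusted p of 5.05e-06. Its annotated copy Supt4b, a processed pseudogene, had 0.609 and 0.510 CPM in Ell3 KD, against 0.416 and 0.689 CPM in Ctrl, and reads shared by the copies cannot be assigned with certainty. Per exon length Supt4a stood 11.03 and 12.3 times above Supt5 in Ell3 KD, and 10.9 and 10.5 times above it in Ctrl. The call of Supt5 was lost after thinning to the lowest library total (edgeR adjusted p = 0.0763), without Ctrl replicate 1 (edgeR adjusted p = 0.0542) and without Ell3 KD replicate 1 (log2 fold change 0.11, edgeR adjusted p = 0.258).

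The region before Supt5 is shown for comparison with those of Ccnt2 and Hexim1, since Supt5 also rose but carried fewer of the motifs searched. It spans chr7:28338747-28338969 (RefSeq, GRCm38.p6, printed 5′ to 3′ on the minus strand), with GGGCGG, here as CCGCCC, in capitals.
Supt5: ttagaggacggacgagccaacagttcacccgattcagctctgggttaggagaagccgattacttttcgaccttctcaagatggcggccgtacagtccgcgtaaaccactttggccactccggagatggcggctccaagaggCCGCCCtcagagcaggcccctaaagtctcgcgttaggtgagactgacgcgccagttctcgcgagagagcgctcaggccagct
The GC box occurred 1 time in it, and neither the CCAAT box nor a TATA spelling occurred. The stretch before Nelfa, which also rose, held none of the motifs, though its RefSeq window held GGGCGG. Like that of Ccnt2, the windows of Cdk9, which fell, and Larp7, which was not called, held both CCAAT and GGGCGG. A link between these motifs and the direction of change was not tested.

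Little of the exon length of the 10 genes is shared with other annotated genes. Exons of Ccnt1 (7.59% of their length) and Supt5 (7.51%) overlap antisense transcripts, those of Nelfa (1.52%) overlap Nsd2 and those of Nelfcd (0.347%) overlap Ctsz on the opposite strand, and those of Cdk9 (3.36%) hold microRNA genes. No source used here says how strand entered the counting. The antisense gene 9330020H09Rik at Ccnt1 had 0.677 and 0.479 CPM in Ell3 KD, against 0.306 and 0.344 CPM in Ctrl, and Gm44709 at Supt5, Mir2861 and Mir3960 had no count. Nsd2 had 24.5 and 22.2 CPM in Ell3 KD, against 21.7 and 26.1 CPM in Ctrl, and Ctsz 0.937 and 0.634 CPM in Ell3 KD, against 0.372 and 0.466 CPM in Ctrl, none of them called. Exons of Ccnt2, Hexim1, Larp7, Nelfb and Nelfe overlap no other annotated gene.

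Genes that act beside the pausing machinery were described from lists that share no gene with the 10. Except for the genes with the smallest p in each direction of a list, which a rule took, their examples were chosen after their values were seen. The counts below stand against 21.1% called higher and 21.8% lower, 42.9% in either direction, over all genes tested. Of 9 genes for other transcription kinases and their cyclins, 7 rose and none fell (77.8% called), with a median log2 fold change of 0.28. These included all 3 genes of the CDK-activating kinase of TFIIH, which acts before P-TEFb. Mnat1, its assembly factor gene, rose by 0.41 ± 0.06 on the log2 scale, with an edgeR adjusted p of 3.25e-06. The cyclin gene Ccnh rose by 0.29 ± 0.04 and the kinase gene Cdk7 by 0.20 ± 0.03. The kinase genes Cdk12, with 105.4 and 103.7 CPM in Ell3 KD against 87.9 and 93.1 CPM in Ctrl, and Cdk13, with 6.57 and 7.70 CPM in Ell3 KD against 5.25 and 4.31 CPM in Ctrl, were also called higher.

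Of 9 genes of the super elongation complex, into which P-TEFb is built, 1 rose and 5 fell (66.7% called), with a median of -0.37. The 5 include Ell3 itself, the targeted gene, so that 4 others fell. Aff4, a scaffold gene of the complex, had 7.24 and 8.83 CPM in Ell3 KD, against 10.9 and 11.1 CPM in Ctrl. Eaf1, which encodes an ELL-associated factor, had 7.23 and 7.24 CPM in Ell3 KD, against 11.3 and 10.7 CPM in Ctrl. Ell and Aff1 were the others that fell. Mllt3, the gene that rose, had the highest level of the list. It had 246.3 and 255.8 CPM in Ell3 KD, against 205.3 and 217.6 CPM in Ctrl (log2 fold change 0.25 ± 0.04, edgeR adjusted p = 4.03e-06). Ell2, Mllt1 and Eaf2 were not called. The list summed to 491.4 and 498.4 CPM in Ell3 KD, against 503.4 and 516.8 CPM in Ctrl.

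Of 16 genes for proteins that free P-TEFb from 7SK or act on it, 6 rose and 4 fell (62.5% called), with a median of 0.01. The splicing factor gene Srsf2 had 31.3 and 34.0 CPM in Ell3 KD, against 24.5 and 25.8 CPM in Ctrl. Hnrnpa2b1, which encodes a protein that takes up 7SK once P-TEFb leaves it, rose by 0.25 ± 0.03 on the log2 scale, at an edgeR adjusted p of 1.69e-06. The phosphatase gene Ppm1g had 16.6 and 17.0 CPM in Ell3 KD, against 25.1 and 24.8 CPM in Ctrl, and fell by 0.57 ± 0.07 (edgeR adjusted p = 3.21e-07). Of 12 genes for the PAF1 complex, SPT6, FACT and other elongation factors, 3 rose and 4 fell (58.3% called), with a median of -0.07. Within the PAF1 complex, Cdc73 had 6.09 and 7.19 CPM in Ell3 KD, against 4.003 and 3.69 CPM in Ctrl, whereas Wdr61 had 23.4 and 22.7 CPM in Ell3 KD, against 30.3 and 31.6 CPM in Ctrl, and both were called. Of 10 genes for termination at the paused polymerase, 1 rose and 2 fell (30% called), with a median of -0.03. The gene that rose was Dcp2, for an mRNA decapping enzyme (0.27 ± 0.05, edgeR adjusted p = 3.59e-05), and Wdr82 fell by 0.17 ± 0.05 (edgeR adjusted p = 0.00556).

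Immediate early and heat shock genes are the textbook genes with a paused polymerase. Of 29 listed, 22 passed the low-count filter, and of these 4 rose, 6 fell and 12 were not called. The share called, 45.5%, was near the 42.9% over all genes tested. Junb, a transcription factor gene, had 1.87 and 1.70 CPM in Ell3 KD, against 0.984 and 0.446 CPM in Ctrl (log2 fold change 1.33 ± 0.31, edgeR adjusted p = 9.90e-04). Hsph1, which encodes a large heat shock protein, had 181.9 and 189.0 CPM in Ell3 KD, against 254.6 and 252.1 CPM in Ctrl (log2 fold change -0.45 ± 0.03, edgeR adjusted p = 1.10e-10). Fos, the classic immediate early gene, had 0.395 and 0.216 CPM in Ell3 KD, against 0.241 and 0.304 CPM in Ctrl, and was not called. The constitutive chaperone gene Hspa8, at 709.0 and 753.0 CPM in Ell3 KD and 732.6 and 734.0 CPM in Ctrl, overlapped between the groups. Myc had 0.609 and 0.696 CPM in Ell3 KD, against 0.394 and 0.203 CPM in Ctrl, and missed the threshold (edgeR adjusted p = 0.0536).

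The genes at 5 CPM or more whose profile over the 4 libraries was nearest to that of Hexim1, the called gene with the largest change, were Prkaca, Rhobtb2 and Foxj2. Their distances from it were 0.34, 0.45 and 0.48 in mean-centred log2 CPM, among 8748 genes compared. A likeness over 4 libraries in 2 groups describes these libraries only.

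**Figure D4:**
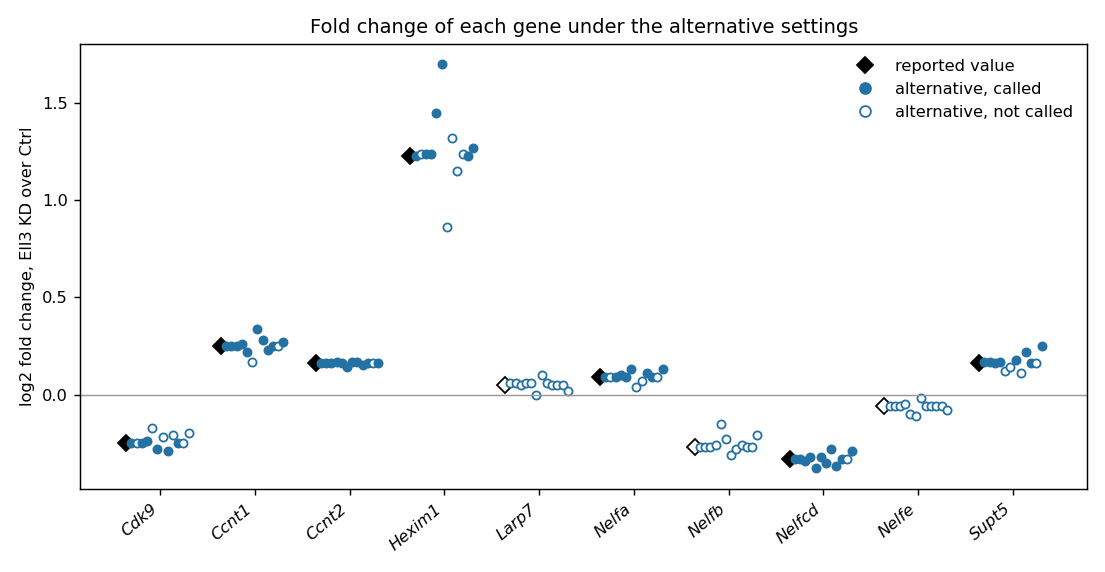
Log2 fold change of Ell3 KD over Ctrl for each gene as reported (diamond) and under each alternative setting (circles, filled where the adjusted p was under 0.05). The values of Ccnt2 stay between 0.14 and 0.17 and those of Nelfcd between -0.38 and -0.28, whereas those of Hexim1 spread between 0.86 and 1.70.

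Across the 12 alternative settings, the direction of 9 of the 10 genes was the same in each, the exception being Larp7 at a value near 0. Ccnt2 and Nelfcd were called in 11 of the 12, and Ccnt1 in 10. Nelfa and Supt5 were called in 8, Hexim1 in 7 and Cdk9 in 6, while Larp7, Nelfb and Nelfe were called in none. An assumed coefficient of variation of 0.2, the same for every gene, was used with the likelihood ratio test of edgeR in place of glmQLFTest. In this setting, every called gene of the 10 except Hexim1 lost its call. The value was set and not estimated from the libraries, so the call of Hexim1 there does not make it the firmest of the 10. Among those lost were Ccnt2 (edgeR adjusted p = 0.930) and Nelfcd (edgeR adjusted p = 0.695). Over all genes tested, 861 were called higher and 1103 lower in that setting. The plot of these alternatives shows that the cyclin genes kept values above 0 and Cdk9 values below 0 throughout, with Cdk9 between -0.29 and -0.17.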

How the data were processed

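RNA of 5 pooled oocytes per library was amplified by a Smart-seq2 protocol over 16 cycles and read as 150-bp pairs, per the labels' protocols. The authors deposited raw counts per gene symbol. FastQC 0.11.5, HISAT2 2.2.1.0 and featureCounts were used with mm10, per the submitters' processing notes, while annotation, strand and multi-mapping settings are not named in the sources used here. Groups and replicate numbers came from the titles. In R 4.3.3, edgeR 4.0.16 (filterByExpr, TMM, glmQLFit, glmQLFTest, two-sided) compared 2 Ell3 KD with 2 Ctrl libraries without covariates, with Benjamini-Hochberg adjustment over all 17879 genes tested. The common biological coefficient of variation was 0.0421. The median total degrees of freedom, with those borrowed from other genes, were 26.3. A count of 0 allowed up to 0.0335 and 0.0456 CPM in Ell3 KD and 0.0665 and 0.0616 CPM in Ctrl (limit of 3 counts, counting error only). Alternatives were DESeq2 1.42.0, limma 3.58.1 voom, RLE factors, no filter, thinning to the lowest library total and each library left out. Further ones were a replicate block, an assumed coefficient of variation of 0.2 (glmFit with fixed dispersion, then glmLRT), and removal of length and GC trends. Lengths and coordinates came from GENCODE M21 on GRCm38, the assembly of mm10, in which all 10 symbols matched 1 gene.

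The genes, lists and tests were chosen with earlier results of these data known. Named were the 10 genes, Ell3, direct partners (Supt4a, Supt4b, Mepce, Hexim2, Rn7sk; 1 other is not reported here), the called gene of smallest p in each direction of each further list, genes with exons overlapping the 10, and the 3 genes nearest in profile to the called gene of largest change.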

Additional observations from a re-analysis of the deposited data

How the results depend on the processing

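Of the 10 genes, 5 were called higher and 2 lower, and of all genes tested 3770 and 3906. These counts were 3 and 1 with DESeq2 (2966 and 2976 over all genes), 4 and 1 after thinning to the lowest library total (1 random draw; 3406 and 3500 over all genes), 5 and 1 with the trend on length and GC content removed (3627 and 3838 over all genes), and 1 and 0 with an assumed coefficient of variation of 0.2, under which 861 genes in all were higher and 1103 lower. Only Hexim1 was called of the 10 under it (edgeR likelihood ratio test, adjusted p = 0.0389). Leaving out 1 library gave between 2 and 4 genes called higher and between 1 and 2 lower, the fewest higher without Ell3 KD replicate 1. Over all genes these settings gave between 2797 and 3482 higher, also fewest without Ell3 KD replicate 1, and between 2922 and 3439 lower. RLE factors, limma-voom and no filter gave the reported 5 and 2. Larp7, never called, lay between -0.00085 and 0.10 on the log2 scale without single libraries, the first without Ctrl replicate 1. The cause of these differences was not tested.

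The labels do not say that equal replicate numbers mark a shared batch, and deviations of same-numbered libraries correlated at 0.0977 over 9688 genes. With the replicate number as a block, 4 of the 10 were called higher and 2 lower (3894 and 3987 over all genes), and Hexim1 was not called (edgeR adjusted p = 0.0587).

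Hexim1 had the fewest counts of the 10, 9 to 50 per library, and after thinning its log2 fold change was 1.45 (edgeR adjusted p = 0.0308). Levels and shares move with the length used: with the longest transcript, Nelfa averaged 111.1 CPM per kb in Ell3 KD and 104.6 CPM per kb in Ctrl, Cdk9 took 12.4% of P-TEFb in Ell3 KD and 16.0% in Ctrl, and Nelfcd 11.8% of NELF in Ell3 KD and 14.8% in Ctrl.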
